A study of Mus musculus with 9 samples.

Results

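Fc gamma receptors read antibody-coated targets for microglia, and 8 genes of that system were followed here by their symbols among the 54532 genes of the expression table. They were the 3 activating receptors Fcgr1, Fcgr3 and Fcgr4, the inhibitory receptor Fcgr2b, the signalling chain Fcer1g, the kinase Syk and the phosphatases Inpp5d and Ptpn6. All 8 were among the 16123 genes tested, which averaged 0.2 FPKM or more over the libraries (FPKM, fragments scaled to gene length and to a depth factor per library). The cells were BV2, a mouse microglial line made to grow without limit, and each of 3 groups had 3 RNA-seq libraries. The Ctrl group was grown in normal medium with 10% serum. The OGD group underwent oxygen-glucose deprivation, which by the study's methods is low-glucose DMEM with 4% serum at 4% oxygen. The OGD_A_485 group (OGD + A-485) received the same deprivation with A-485, a catalytic inhibitor of the acetyltransferases P300 and CBP. The labels give only the group and a replicate number. The study describes 50 µM A-485 for 24 h of OGD for its histone lactylation and polarization experiments, and does not restate the time or dose for these libraries. No group received A-485 without OGD, so the action of A-485 in normal medium was not measured, and the lower oxygen, glucose and serum of OGD cannot be told apart.

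Reads on genes numbered 12593250 to 16091038 per library, recovered from the FPKM values, so that 1 read on a gene of 1 kb was worth 0.0618 to 0.0786 FPKM. Libraries of the same group were further apart than sampling noise gives (chi-square per degree of freedom 2.80 to 5.73), and the labels do not say that they came from separate cultures. The p-values therefore measure the spread between these libraries, which may be technical. The BV2 identity was checked on 10 microglia and macrophage markers, of which 9 had a mean of at least 1 FPKM and P2ry12 did not. Aif1 reached that mean only through OGD + A-485, with 0.613, 0.889 and 2.57 FPKM in Ctrl, OGD and OGD + A-485. The summed level of the 10 markers ran from 404 to 415 FPKM over the Ctrl libraries, from 511 to 536 over the OGD libraries and from 874 to 916 with A-485. Cd68 was the largest part of it, at 277.5, 306.0 and 444.9 FPKM in the 3 groups. Markers of B cells, which carry Fcgr2b, summed to at most 1.59 FPKM in any library, and those of T and NK cells to at most 0.177 FPKM. Neutrophil and mast cell markers ran from 0.122 to 0.326 FPKM over Ctrl, from 0.247 to 0.533 over OGD and from 1.47 to 2.96 with A-485 when summed, with Ly6g, S100a9 and Mcpt4 at 0 in all libraries. In these bulk libraries, fewer cells carrying a transcript and less of it per cell cannot be told apart.

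Activating Fc gamma receptors bind the constant region of IgG but lack a signalling tail of their own in the mouse, and they pair with the Fc receptor gamma chain encoded by Fcer1g. Crosslinking leads Src family kinases to phosphorylate the ITAM of that chain, which recruits Syk and starts phagocytosis and cytokine release. The inhibitory receptor FcγRIIB, from Fcgr2b, carries an ITIM that recruits the lipid phosphatase SHIP1, from Inpp5d. The tyrosine phosphatase SHP-1, from Ptpn6, serves many other ITIM receptors. The balance of activating to inhibitory receptors on one cell sets how readily it answers immune complexes.

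The promoters of the 4 receptors are shown because these close relatives moved in different directions in the comparisons that follow, and because A-485 acts on enzymes that work at promoters and enhancers. All 8 genes were matched by symbol in the RefSeq promoter table of GRCm38.p6, and each window of 300 bases holds a RefSeq start and mostly the bases before it. Fcgr1 is at chr3:96293920-96294219 on the minus strand. The other windows are at chr1:171059354-171059653 on the minus strand for Fcgr3, chr1:171018676-171018975 on the plus strand for Fcgr4 and chr1:170976022-170976321 on the minus strand for Fcgr2b. The capitals mark matches, on either strand, to GAGGAA, a core of sites for PU.1 and related ETS factors, and to TTCNNNGAA, the GAS pattern of STAT factors.
Fcgr1: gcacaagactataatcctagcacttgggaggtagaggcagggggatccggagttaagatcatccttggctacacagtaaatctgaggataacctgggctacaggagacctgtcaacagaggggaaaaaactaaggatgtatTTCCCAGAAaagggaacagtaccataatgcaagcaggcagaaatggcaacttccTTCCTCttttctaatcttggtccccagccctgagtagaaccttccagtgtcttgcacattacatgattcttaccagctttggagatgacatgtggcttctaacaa
Fcgr3: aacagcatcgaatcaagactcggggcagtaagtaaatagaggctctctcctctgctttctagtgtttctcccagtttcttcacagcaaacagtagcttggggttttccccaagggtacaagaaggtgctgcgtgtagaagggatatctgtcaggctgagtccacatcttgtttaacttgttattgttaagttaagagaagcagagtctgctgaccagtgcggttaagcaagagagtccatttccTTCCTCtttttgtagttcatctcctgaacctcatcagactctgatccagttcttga
Fcgr4: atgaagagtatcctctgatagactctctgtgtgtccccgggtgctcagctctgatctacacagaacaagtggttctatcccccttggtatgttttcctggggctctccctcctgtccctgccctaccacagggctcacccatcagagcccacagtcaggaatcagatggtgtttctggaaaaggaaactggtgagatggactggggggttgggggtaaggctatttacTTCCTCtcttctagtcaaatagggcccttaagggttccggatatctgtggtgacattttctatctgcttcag
Fcgr2b: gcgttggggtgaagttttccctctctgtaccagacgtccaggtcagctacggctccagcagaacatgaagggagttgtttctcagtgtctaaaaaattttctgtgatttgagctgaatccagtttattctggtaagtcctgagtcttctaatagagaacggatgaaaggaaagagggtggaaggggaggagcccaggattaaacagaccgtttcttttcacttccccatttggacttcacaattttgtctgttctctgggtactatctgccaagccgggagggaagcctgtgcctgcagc
The GAGGAA core lies in the windows of all 3 activating receptors, with its first base 55 bases before the start in Fcgr1, 6 in Fcgr3 and 22 in Fcgr4, and no match lies in the window of Fcgr2b. Over the 8 genes it was found in 4, Inpp5d being the other one, beside 28.3% of the 32817 promoters in the table. The GAS pattern was found in Fcgr1 alone of the 8, at TTCCCAGAA 109 bases before the start, and in 8.29% of all promoters. The ISRE pattern of interferon response, GAAA then any 2 bases then GAAA, was found in Fcgr4 alone, at GAAAAGGAAA 73 bases before the start and left in lower case above, and in 3.43% of all promoters. Neither the AP-1 pattern TGANTCA, present in 7.81% of promoters, nor the HIF pattern ACGTG, present in 19.6%, was found in any of the 8 windows. These are matches of letters in 1 window per gene. The windows of Fcgr3 and Fcgr2b begin from a RefSeq start that lies 5532 and 476 bases inside the gene as deposited, and Fcgr3 has 2 starts in the table. PU.1 itself, from Spi1, had 43.9 ± 0.852 FPKM (SD, n = 3) in Ctrl, 38.5 ± 3.30 in OGD and 97.9 ± 6.40 in OGD + A-485. That was a log2 fold change of -0.19 in OGD against Ctrl (limma, adjusted p = 0.0487), under the fold threshold for a call, and of 1.34 in OGD + A-485 against OGD (limma, adjusted p = 9.01e-07). Spi1 is also one of the microglia markers. Of the other genes of the 8, Fcer1g and Syk held no GAGGAA match and were called higher in OGD + A-485 against OGD. Inpp5d held matches and Ptpn6 held none, and neither was called in that comparison. Any part of PU.1 or of these patterns in the changes was not tested.

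To determine how the receptor set responded, each gene was compared between groups with limma, and called where the unadjusted p was under 0.01 and the absolute log2 fold change above 0.5, the study's own thresholds. Adjusted p-values are Benjamini-Hochberg over the 16123 genes. Compared to the Ctrl group, OGD raised Fcgr3, Fcgr4 and Fcgr2b and lowered Fcgr1, so activating and inhibitory receptors did not split by class. Compared to OGD alone, OGD + A-485 raised all 3 activating receptors together with Fcer1g and Syk, and it lowered Fcgr2b. Of the 8 genes, 3 were called higher and 1 lower in OGD against Ctrl, where 11.2% and 9.81% of all genes tested were called in those directions. Between OGD + A-485 and OGD, 5 were called higher and 1 lower, beside 12.2% and 13.4% of all genes. Between OGD + A-485 and Ctrl, 6 were called higher and 1 lower, beside 17.0% and 16.6%. By library ranges, 6 of the 8 lay wholly above Ctrl and 1 wholly below in OGD, as did 28.0% and 27.5% of all genes tested. OGD + A-485 lay wholly above OGD for 6 and wholly below for 1, beside 28.5% and 28.3% of all genes, and wholly above Ctrl for 7 and below for 1, beside 31.8% and 32.0%. The median log2 fold change of the 8 genes was 0.46, 0.72 and 1.11 in the 3 comparisons, in the same order, against 0.01, 0.01 and 0.02 for all genes tested.

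**Figure D1:**
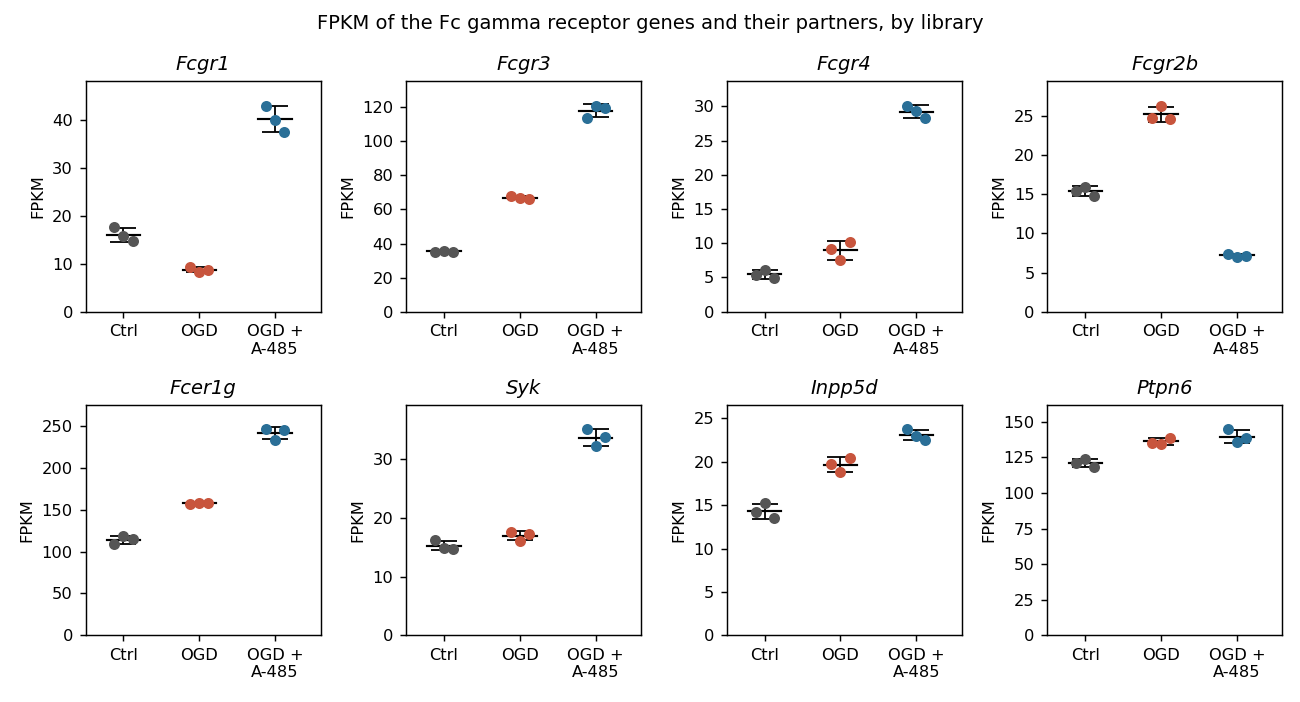
FPKM of each of the 8 genes (y axis, linear from 0) in the 3 libraries of Ctrl, OGD and OGD + A-485 (x axis), with points for libraries and black lines for the mean and its SD. Fcgr1 is lowest in OGD and highest in OGD + A-485, and Fcgr2b shows the opposite order.

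Fcgr1 encodes FcγRI, the high-affinity receptor that binds monomeric IgG (ENSMUSG00000015947, chr3:96282909-96293969 on GRCm38, minus strand). Its level was 17.6, 15.8 and 14.7 FPKM in the Ctrl libraries, 9.26, 8.22 and 8.60 in OGD, and 42.9, 40.0 and 37.4 in OGD + A-485. The 3 groups did not overlap, with every OGD library below every Ctrl library and every OGD + A-485 library above both. Fcgr1 was 1.85-fold lower in OGD than in Ctrl, going from 16.0 ± 1.43 to 8.69 ± 0.525 FPKM (SD, n = 3 per group), a log2 fold change of -0.87 (SE 0.0776, limma, adjusted p = 3.08e-05). OGD + A-485 was 4.61-fold higher than OGD, at 40.1 ± 2.73 FPKM, a log2 fold change of 2.19 (limma, adjusted p = 1.38e-07). It was also 2.50-fold higher than Ctrl, at a log2 fold change of 1.32 (limma, adjusted p = 1.10e-06), so the level with A-485 did not stop at that of normal medium. Fcgr1 rested on 277 to 1635 reads per library. It was the only one of the 8 genes called lower in OGD.

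Fcgr3 encodes FcγRIII, a low-affinity receptor for immune complexes (ENSMUSG00000059498, chr1:171051174-171064935, minus strand). It had 35.0, 35.9 and 35.3 FPKM in the Ctrl libraries, 68.2, 66.7 and 66.0 in OGD, and 113.9, 120.9 and 119.4 in OGD + A-485. No groups overlapped, and the levels went up from Ctrl to OGD and again with A-485. Fcgr3 rose 1.89-fold in OGD, from 35.4 ± 0.454 to 67.0 ± 1.09 FPKM (log2 fold change 0.92, SE 0.0340, limma, adjusted p = 3.83e-07). A further 1.76-fold rise followed with A-485, to 118 ± 3.69 FPKM (log2 fold change 0.82, limma, adjusted p = 3.06e-07). Fcgr3 was the most abundant of the 4 receptors in every group.

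Fcgr4 encodes FcγRIV, a rodent receptor of intermediate affinity for IgG2a and IgG2b (ENSMUSG00000059089, chr1:171018920-171029761, plus strand). The Ctrl libraries had 5.36, 6.09 and 4.87 FPKM, the OGD libraries 9.13, 7.52 and 10.2, and the OGD + A-485 libraries 30.1, 29.3 and 28.3. The groups were separate again, although OGD replicate 2 lay close to the Ctrl libraries. Fcgr4 rose 1.65-fold in OGD (5.44 ± 0.615 to 8.97 ± 1.37 FPKM, log2 fold change 0.70, SE 0.114, limma, adjusted p = 0.000988), and 3.26-fold more with A-485 to 29.2 ± 0.907 FPKM (log2 fold change 1.70, limma, adjusted p = 4.25e-06). Against Ctrl the rise with A-485 was 5.37-fold, the largest fold among the 8 genes in that comparison. Fcgr4 had the fewest reads of the 8, at 90 to 582 per library.

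Fcgr2b is the inhibitory receptor (ENSMUSG00000026656, chr1:170958617-170976547, minus strand). Its level was 15.4, 16.0 and 14.8 FPKM in the Ctrl libraries, 24.7, 26.3 and 24.6 in OGD, and 7.35, 7.05 and 7.16 in OGD + A-485. Every OGD library was above, and every OGD + A-485 library below, all Ctrl libraries. OGD raised Fcgr2b 1.64-fold, from 15.4 ± 0.613 to 25.2 ± 0.947 FPKM (log2 fold change 0.71, SE 0.0460, limma, adjusted p = 5.72e-06). With A-485 it was 3.51-fold lower than in OGD, at 7.19 ± 0.152 FPKM (log2 fold change -1.80, limma, adjusted p = 2.96e-08). It was 2.14-fold lower than in Ctrl (log2 fold change -1.09, limma, adjusted p = 1.81e-07), on 598 to 2005 reads per library. Fcgr2b was the only one of the 8 genes called lower in either comparison of OGD + A-485.

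**Figure D2:**
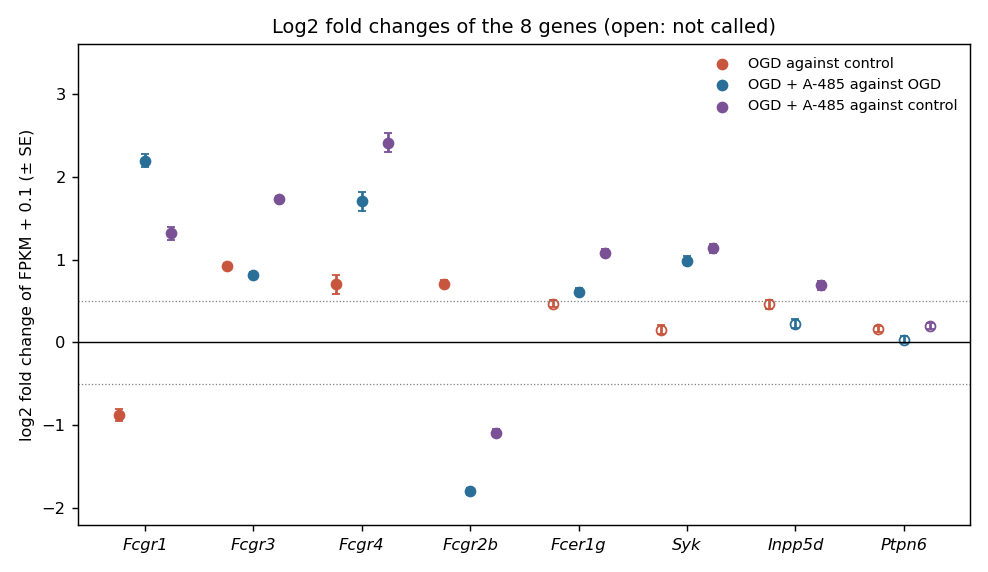
Log2 fold change (y axis, of FPKM + 0.1, with its standard error as a bar) of each of the 8 genes (x axis) in the 3 comparisons, with open points for values not called and dotted lines at the fold threshold. In OGD + A-485 against OGD, the 5 activating-side genes lie between 0.61 and 2.19 and Fcgr2b at -1.80.

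The Fcgr2b and Fcgr3 transcripts are partly alike, which limits how their reads can be told apart. In the GENCODE M21 transcripts, 9.58% of the 50-base words of Fcgr3 (166 of 1733) also occur in Fcgr2b, and 2.92% of those of Fcgr2b occur in Fcgr3. For 100-base words the shares were 2.54% and 0.753%. Counting any other gene, 6.95% of the 50-base words of Fcgr2b (395 of 5685) and 4.3% of its 100-base words were shared. Fcgr1 and Fcgr4 shared no 50-base word with any other gene. An antisense gene, Gm38204, overlaps 3175 bases of Fcgr2b, and without a statement that counting used strand its reads cannot be told apart from those of Fcgr2b there. Gm38204 had at most 24 reads in a library.

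The ratio of activating to inhibitory receptor transcripts was computed in each library as the summed FPKM of Fcgr1, Fcgr3 and Fcgr4 over that of Fcgr2b, and it is a description with no test. It was 3.76, 3.62 and 3.72 in the Ctrl libraries, 3.50, 3.13 and 3.45 in OGD, and 25.4, 27.0 and 25.8 in OGD + A-485. The OGD libraries lay just below the Ctrl libraries without overlap, while those with A-485 lay far above both. The group means were 3.70 ± 0.0718, 3.36 ± 0.198 and 26.1 ± 0.806 (SD, n = 3). On the log2 scale OGD differed from Ctrl by -0.14, and by -0.09 without OGD replicate 2, whereas OGD + A-485 differed from OGD by 2.96 and from Ctrl by 2.82. Taken as the mean log2 level of the 3 activating receptors, in which the fall of Fcgr1 weighs as much as the rise of the abundant Fcgr3, the difference of OGD from Ctrl was -0.46.

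**Figure D3:**
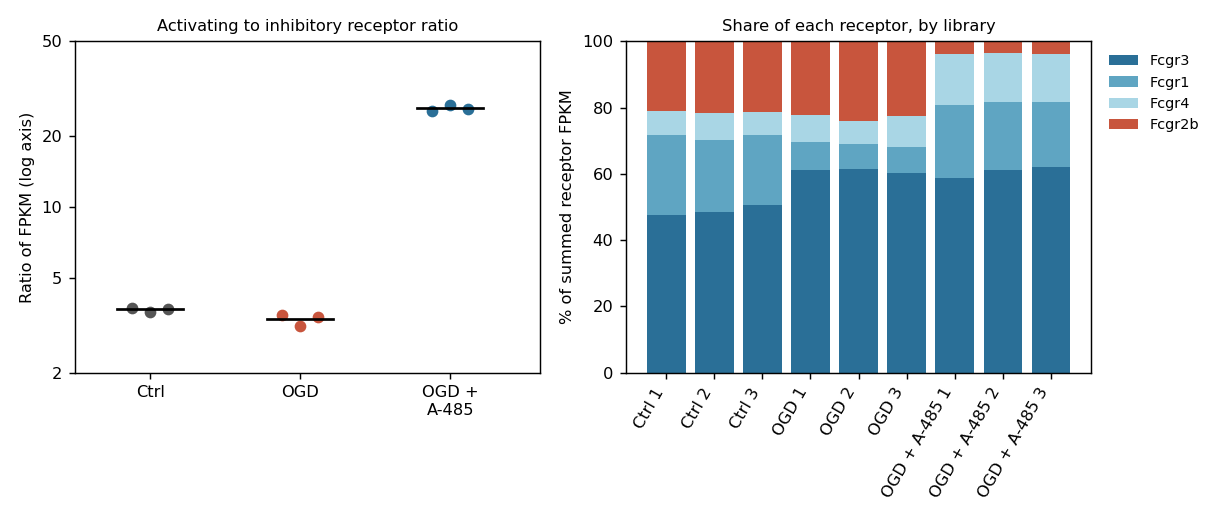
Left, ratio of the summed FPKM of the 3 activating receptors to that of Fcgr2b (y axis, log scale) in each library, with a line at the group mean. Right, share of each receptor in the summed FPKM of the 4 (y axis, percent) by library, where Fcgr2b narrows from 21.3% in Ctrl to 3.70% in OGD + A-485 and Fcgr1 is narrowest in OGD.

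The 3 activating receptors did not contribute alike to this ratio. Fcgr1 over Fcgr2b was 1.04 ± 0.0836 in Ctrl, 0.345 ± 0.0312 in OGD and 5.58 ± 0.315 in OGD + A-485. Fcgr3 over Fcgr2b was 2.30 ± 0.0777, 2.66 ± 0.112 and 16.4 ± 0.850 in the same order, and Fcgr4 over Fcgr2b 0.353 ± 0.0260, 0.357 ± 0.0660 and 4.07 ± 0.109. The small change of the summed ratio in OGD therefore joined a lower Fcgr1 ratio to a higher Fcgr3 ratio. Of the summed FPKM of the 4 receptors, Fcgr2b made up 21.3% in Ctrl, 23.0% in OGD and 3.70% in OGD + A-485. Fcgr1 made up 22.2%, 7.91% and 20.6%, and Fcgr3 49.0%, 61.0% and 60.7%. The sum itself was 72.2 ± 2.28 FPKM in Ctrl, 109.9 ± 1.29 in OGD and 194.5 ± 2.52 in OGD + A-485.

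Fcer1g encodes the gamma chain that the activating receptors need for surface expression and signalling (ENSMUSG00000058715, chr1:171229572-171234365, minus strand). The libraries had 108.7, 118 and 114.8 FPKM in Ctrl, 156.7, 158.3 and 157.8 in OGD, and 245.6, 233.4 and 245.1 in OGD + A-485. The groups were separate and went up at each step. In OGD the level was 1.38-fold that of Ctrl (158 ± 0.827 against 114 ± 4.72 FPKM, log2 fold change 0.47, SE 0.0407, limma, adjusted p = 2.67e-05), which passed the p-value but not the fold threshold. OGD + A-485 was 1.53-fold above OGD at 241 ± 6.91 FPKM (log2 fold change 0.61, limma, adjusted p = 3.90e-06), and after quantile normalization this fold, at 0.43, fell short of a call. The sum of the 3 activating receptors went from 56.8 to 84.6 and 187 FPKM over the same groups. Fcer1g over that sum was 2.01 in Ctrl, 1.86 in OGD and 1.29 in OGD + A-485.

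Syk encodes the tyrosine kinase that binds the phosphorylated ITAM (ENSMUSG00000021457, chr13:52583173-52648792, plus strand). It had 16.2, 14.8 and 14.7 FPKM in the Ctrl libraries, 17.6, 16.1 and 17.2 in OGD, and 35.0, 32.1 and 33.7 in OGD + A-485. Ctrl and OGD overlapped, and every library with A-485 was above both. Syk was 15.2 ± 0.802 FPKM in Ctrl and 16.9 ± 0.787 in OGD, a log2 fold change of 0.15 that was not called (limma, adjusted p = 0.0488). With A-485 it rose 1.98-fold over OGD to 33.6 ± 1.43 FPKM (log2 fold change 0.98, SE 0.0548, limma, adjusted p = 1.45e-06). The Syk comparison of OGD with Ctrl was 1 of only 2 among all comparisons of these genes in which groups overlapped.

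Inpp5d encodes SHIP1, the phosphatase that FcγRIIB recruits to remove PIP3 (ENSMUSG00000026288, chr1:87620312-87720507, plus strand). Its level was 14.2, 15.2 and 13.5 FPKM in the Ctrl libraries, 19.7, 18.8 and 20.5 in OGD, and 23.7, 22.9 and 22.6 in OGD + A-485. The groups were separate, in the order Ctrl, OGD, OGD + A-485. The step from Ctrl (14.3 ± 0.858 FPKM) to OGD (19.7 ± 0.815) was a log2 fold change of 0.46 that fell short of the fold threshold (SE 0.0528, limma, adjusted p = 0.000133). It passed that threshold, at 0.50, without Ctrl replicate 2. The step from OGD to OGD + A-485 (23.1 ± 0.593 FPKM) was 0.23 and not called (limma, adjusted p = 0.00609), and the whole difference from Ctrl, 0.69, was called (limma, adjusted p = 5.72e-06). Fcgr2b, whose product SHIP1 serves, went the other way with A-485. Inpp5d over Syk was 0.941 ± 0.0789 in Ctrl, 1.16 ± 0.0370 in OGD and 0.687 ± 0.0233 in OGD + A-485.

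Ptpn6 encodes SHP-1 (ENSMUSG00000004266, chr6:124720707-124738714, minus strand) and moved least of the 8 genes in the comparisons with A-485. It had 121.3, 124.2 and 118.4 FPKM in the Ctrl libraries, 135.5, 134.3 and 139 in OGD, and 144.7, 135.7 and 138.5 in OGD + A-485. The Ctrl libraries were below all others, while OGD and OGD + A-485 overlapped. Its log2 fold change was 0.17 in OGD against Ctrl (SE 0.0374, limma, adjusted p = 0.00579), under the fold threshold. Between OGD + A-485 and OGD it was 0.03 (limma, adjusted p = 0.477), a direction that turned to -0.03 when libraries were scaled to their totals. Against Ctrl it was 0.20 with A-485 (limma, adjusted p = 0.00144), not called, and it became -0.32 relative to the 25 genes on either side of Ptpn6, whose median was 0.52.

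FPKM is per length, so levels can also be ordered between genes. In Ctrl the order was Ptpn6, Fcer1g, Fcgr3, Fcgr1, Fcgr2b, Syk, Inpp5d and Fcgr4, and neighbours from Fcgr1 to Inpp5d overlapped in their library ranges. In OGD it was Fcer1g, Ptpn6, Fcgr3, Fcgr2b, Inpp5d, Syk, Fcgr4 and Fcgr1, with Fcgr4 (8.97 FPKM) and Fcgr1 (8.69 FPKM) overlapping. With A-485 the order became Fcer1g, Ptpn6, Fcgr3, Fcgr1, Syk, Fcgr4, Inpp5d and Fcgr2b, with no overlap between neighbours. Fcgr2b thus went from the middle of the order in Ctrl and OGD to its end with A-485.

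The microglia markers moved with several of these genes. Csf1r, the receptor for CSF1, had 24.2 ± 1.05 FPKM in Ctrl, 44.6 ± 0.987 in OGD and 131 ± 2.58 in OGD + A-485, with log2 fold changes of 0.88 and 1.55 for the steps to OGD and to A-485 (limma, adjusted p = 1.06e-06 and 2.96e-08). Adgre1, the F4/80 antigen, had 20.8 ± 0.872, 18.8 ± 0.341 and 77.5 ± 2.50 FPKM, with log2 fold changes of -0.14, not called, and 2.04 (limma, adjusted p = 0.0232 and 8.37e-09). The markers did not all move alike, since Tmem119 had 1.40, 1.34 and 1.33 FPKM in the 3 groups. The part of these markers in the receptor changes was not tested.

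The wider pathway was followed with 110 other genes of Fc and ITAM or ITIM signalling, of which 109 were in the table and 96 passed the filter. Of these, 26 were called higher and 3 lower in OGD against Ctrl, 27.1% and 3.12% of those tested, with a median log2 fold change of 0.12. A-485 added to OGD had 36 called higher and 13 lower, 37.5% and 13.5%, with a median of 0.32. Against Ctrl, OGD + A-485 had 47 called higher and 9 lower, 49.0% and 9.38%, with a median of 0.52. The shares of all genes called in each direction are those given above for the receptor genes.

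**Figure D4:**
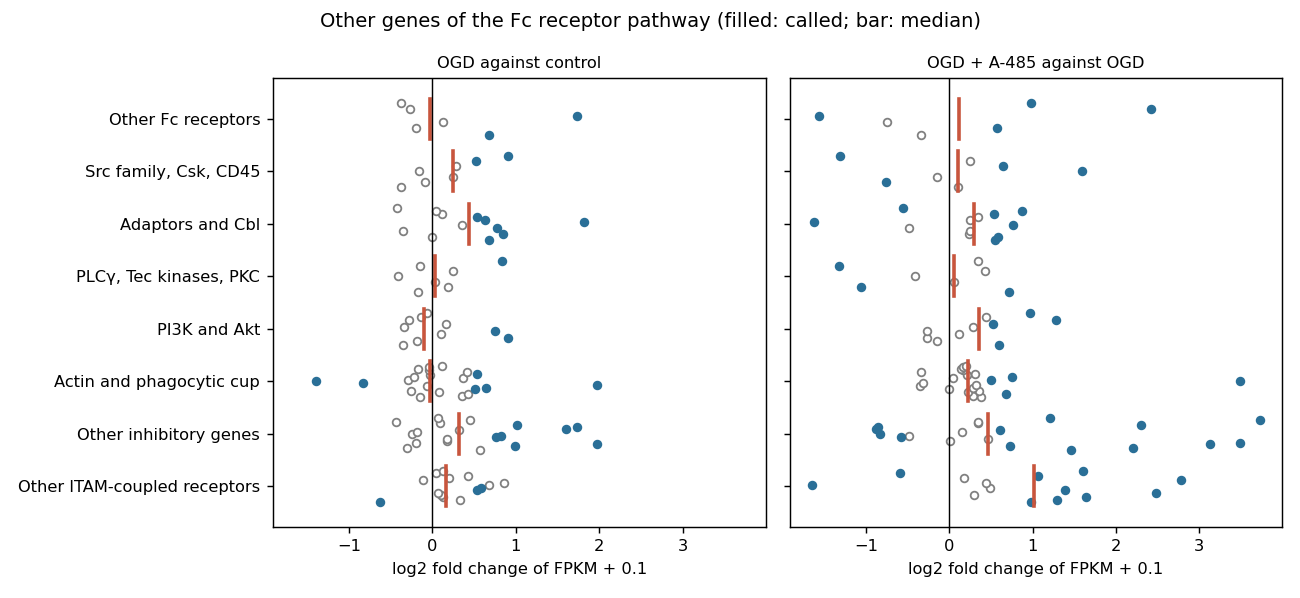
Log2 fold change (x axis) of the 96 other pathway genes tested, each a point and filled where called, by their role (y axis, bars at medians), in OGD against Ctrl on the left and OGD + A-485 against OGD on the right. The list of ITAM-coupled receptors, DAP12 and related adaptors has the highest median with A-485, at 1.02.

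Other Fc receptors were few, with 6 of 14 tested, and the IgE receptor subunits Fcer1a and Ms4a2 were at 0 in all libraries. In OGD against Ctrl, 2 of these 6 were called higher and 0 lower. In OGD + A-485 against OGD, 3 were called higher and 1 lower. The one called lower was Fcrlb, a gene of the same chromosome 1 region described below. In limma at an unadjusted p under 0.05, whatever the fold, 2 were higher and 1 lower in OGD, and 3 higher and 2 lower with A-485. The share of all genes at that looser p was not counted, here or for the lists that follow. Among Src family kinases and their regulators, 2 of 7 were called higher and none lower in OGD. At that unadjusted p in limma, 4 were higher and 1 lower in OGD, and 3 higher and 3 lower with A-485. With A-485, 2 were called higher and 2 lower. Src had 7.92, 14.9 and 5.93 FPKM in Ctrl, OGD and OGD + A-485, and its fall with A-485 was -1.31 on the log2 scale (SE 0.0828, limma, adjusted p = 2.97e-06). Lyn, a kinase that phosphorylates ITAMs and chosen here after its values were seen, had 23.9, 29.0 and 45.5 FPKM in the 3 groups. It rose with A-485 by a log2 fold change of 0.65 (limma, adjusted p = 2.70e-06) and was not called in OGD (0.28, limma, adjusted p = 0.000493). Lyn's rise with A-485 relative to its 25 neighbours on either side was 0.44, short of a call.

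Of 12 adaptors and Cbl proteins, 6 were called higher and 0 lower in OGD, and 5 higher and 2 lower with A-485. In limma at an unadjusted p under 0.05, 7 were higher and 2 lower in OGD, and 8 higher and 3 lower with A-485. Lat, an adaptor best known from T cells, had 2.26, 8.18 and 2.61 FPKM in Ctrl, OGD and OGD + A-485. It rose by 1.82 on the log2 scale in OGD (SE 0.137, limma, adjusted p = 1.23e-05) and fell by 1.62 with A-485 (limma, adjusted p = 1.63e-05). Like Fcgr2b, Lat was highest in OGD, but its OGD + A-485 libraries overlapped those of Ctrl while those of Fcgr2b lay below them. Of 7 genes of the phospholipase C, Tec kinase and protein kinase C group, 1 was called higher in OGD, and 1 higher and 2 lower with A-485. At the same unadjusted p in limma, 3 were higher and 2 lower in OGD, and 3 higher and 3 lower with A-485. Prkce, the epsilon isoform of protein kinase C, had 5.98, 5.38 and 2.11 FPKM and was lower with A-485 by a log2 fold change of -1.32 against OGD and -1.47 against Ctrl (limma, adjusted p = 3.55e-06 and 1.04e-06). Of 10 PI3K and Akt genes, 2 were called higher in OGD and 4 with A-485, and none lower. At that unadjusted p in limma, 3 were higher and 5 lower in OGD, and 7 higher and 2 lower with A-485.

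Of 21 genes of the actin network and phagocytic cup, 4 were called higher and 2 lower in OGD. With A-485, 4 were called higher and none lower. In limma at an unadjusted p under 0.05, 8 were higher and 6 lower in OGD, and 15 higher and 3 lower with A-485. The share of all genes at that p was not counted, so these counts have no background beside them. Gsn, the actin-severing protein gelsolin, had 85.1, 333 and 417 FPKM in the 3 groups, and rose by 1.97 on the log2 scale in OGD (SE 0.0611, limma, adjusted p = 2.39e-07). Marcks, an actin-binding substrate of protein kinase C, had 3.15, 1.13 and 13.7 FPKM, and it fell by 1.40 in OGD and rose by 3.49 with A-485 (limma, adjusted p = 7.96e-06 and 3.79e-08). Limk1, the kinase of cofilin, had 3.40, 1.86 and 1.49 FPKM and fell by 0.84 in OGD and by 1.14 in OGD + A-485 against Ctrl (limma, adjusted p = 0.000714 and 6.43e-05). Marcks thus had the order of groups seen in Fcgr1.

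The other inhibitory receptors and phosphatases, listed with some related genes, did not follow Fcgr2b as a group. Of 19 tested, 7 were called higher and none lower in OGD, and 9 higher and 4 lower with A-485. Their median log2 fold changes were 0.32 and 0.46. In limma at an unadjusted p under 0.05, 11 were higher and 4 lower in OGD, and 13 higher and 5 lower with A-485. Among the 4 called lower with A-485 were Lilrb4a and Lilr4b, named after their values were seen. Lilr4b is listed as a close relative of Lilrb4a, not as a known inhibitory receptor. Reads may be shared between the 2, which was not checked, so they are not independent cases. Lilrb4a had 43.0, 144.5 and 79.5 FPKM in the 3 groups, and Lilr4b 56.2, 171.2 and 92.65. Like Fcgr2b, both rose in OGD, by 1.73 and 1.60 on the log2 scale. With A-485 their log2 fold changes against OGD were -0.85 and -0.88, and they stayed above Ctrl. Siglece, an ITIM receptor for sialic acid, had 0.407, 0.557 and 8.57 FPKM, and its rise with A-485 over OGD was 3.73 on the log2 scale (SE 0.285, limma, adjusted p = 9.24e-06) and over Ctrl 4.17 (limma, adjusted p = 2.73e-06). Clec12a, an inhibitory C-type lectin, was counted in each library by 3 to 6 reads (Ctrl), 32 to 43 reads (OGD) or 391 to 431 reads (OGD + A-485). Its mean level was 0.0510, 0.492 and 5.05 FPKM, with log2 fold changes of 1.97 and 3.13 for the steps to OGD and to A-485 and 5.11 for A-485 against Ctrl (limma, adjusted p = 6.66e-05, 3.35e-06 and 1.27e-07). Siglece and Clec12a averaged under 1 FPKM in Ctrl and in OGD, so only OGD + A-485 brought them past the 1 FPKM mean required for naming. Pirb, a paired inhibitory receptor for MHC class I, rose by 3.31 in OGD + A-485 against Ctrl, from 0.580 to 6.64 FPKM (limma, adjusted p = 1.57e-07). The PIR genes are near-identical copies, so reads on Pirb may belong to its relatives. Inpp4b, a phosphoinositide phosphatase, was the one called lower against Ctrl, at -1.07 (4.89 to 2.28 FPKM, limma, adjusted p = 1.11e-05). Dok3, an adaptor that recruits SHIP1 and was chosen after its values were seen, rose by 0.76 in OGD and fell by 0.57 with A-485 (18.1, 30.8 and 20.6 FPKM, limma, adjusted p = 1.37e-05 and 5.13e-05), and the fall relative to its neighbours was -0.34, short of a call.

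Of 14 genes tested from the list of other ITAM-coupled receptors, DAP12 and related adaptors, 2 were called higher and 1 lower in OGD. With A-485, 8 were called higher and 2 lower. The list is not limited to receptors that use chains other than that from Fcer1g. In limma at an unadjusted p under 0.05, 6 were higher and 1 lower in OGD, and 11 higher and 2 lower with A-485. Tyrobp, which encodes the adaptor DAP12 and was named after its values were seen, had 73.1 ± 4.99 FPKM in Ctrl, 80.0 ± 5.71 in OGD and 243 ± 13.6 in OGD + A-485. It was not called in OGD (log2 fold change 0.13, limma, adjusted p = 0.170) and rose by 1.60 with A-485 (SE 0.0701, limma, adjusted p = 4.02e-07). Set beside Fcer1g, the adaptor of the Fc receptors, the level of Tyrobp was lower in Ctrl and OGD and about the same with A-485. Cd300lb, a receptor that pairs with DAP12, fell by 0.63 in OGD, from 6.98 to 4.50 FPKM (limma, adjusted p = 0.000920), and had 8.92 FPKM with A-485.

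The 12 genes whose log2 levels over the 9 libraries were most like those of the 4 receptors were sought by Pearson's r among the 7750 genes averaging 5 FPKM or more. The libraries fall into 3 groups, so r chiefly ranks genes by their 3 group means. Closest to Fcgr1 were Dtx3l (r = 0.994), Sash3 (0.993) and Elovl1 (0.992), and all 3 had their lowest mean in OGD and highest with A-485, as in Dtx3l with 8.77, 6.92 and 12.5 FPKM. Closest to Fcgr3 were Rapgef2 (0.998), Pea15a (0.997) and Tmsb10 (0.997), and closest to Fcgr4 were Tbc1d22a (0.998), Esyt1 (0.996) and Tgm2 (0.995). Rapgef2 had 3.40, 8.01 and 17.8 FPKM in Ctrl, OGD and OGD + A-485, and Tgm2 had 1.62, 3.17 and 15.5 FPKM. Closest to Fcgr2b were Glipr2 (0.999), Myh10 (0.999) and Parp16 (0.998). Parp16 had 8.18, 13.5 and 3.50 FPKM, and Myh10, a nonmuscle myosin heavy chain, had 20.4, 43.1 and 7.02 FPKM, both with the order of groups of Fcgr2b.

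Fcgr2b, Fcgr4, Fcgr3 and Fcer1g lie in that order within 275.7 kb of chromosome 1, from 170958617 to 171234365 on GRCm38. With A-485 the neighbouring receptor genes of this order went opposite ways, with Fcgr2b at -1.80 and Fcgr4 at 1.70 on the log2 scale against OGD. Within 500 kb on either side, 38 other genes were tested, of which 5 were called higher and 4 lower in that comparison, 23.7% in all beside 25.7% of all genes. Their log2 fold changes ran from -3.57 to 2.51 with a median of 0.07. Fcrlb, an Fc receptor-like gene beside Fcgr2b at chr1:170907273-170912941, was among the 4 lower. It had 0.430 ± 0.243 FPKM in Ctrl, 1.59 ± 0.451 in OGD and 0.488 ± 0.226 in OGD + A-485, on 5 to 35 reads, and it rose by 1.73 in OGD and fell by 1.56 with A-485 (limma, adjusted p = 0.00529 and 0.00805). That fall was no longer called without OGD replicate 2 (-1.36), OGD + A-485 replicate 2 (-1.47) or OGD + A-485 replicate 3 (-1.36). Named after their values were seen, the others called lower were Gm38204, the antisense gene over Fcgr2b (-2.12 on 1 to 24 reads, limma, adjusted p = 0.00774, and -1.81 and not called without OGD replicate 2), the long noncoding Gm10522 (-3.57 on 0 to 35 reads, limma, adjusted p = 0.000175) and Adamts4 (-0.78 on 55 to 100 reads, limma, adjusted p = 0.00107). The first 2 and Fcrlb lie beside or over Fcgr2b, and their values rest on few reads. The 5 called higher were Pfdn2 (0.59), Arhgap30 (0.58), Cd244a (1.34), Ly9 (0.85) and Cd48 (1.07). They averaged 10.38 to 24.45 FPKM over the libraries and lie 387.1 to 723.4 kb from Fcgr2b. For Fcgr2b the median log2 fold change of the 25 genes tested on either side was 0.07 with A-485, and it was 0.14 around Fcgr3 and -0.11 around Fcgr1.

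**Figure D5:**
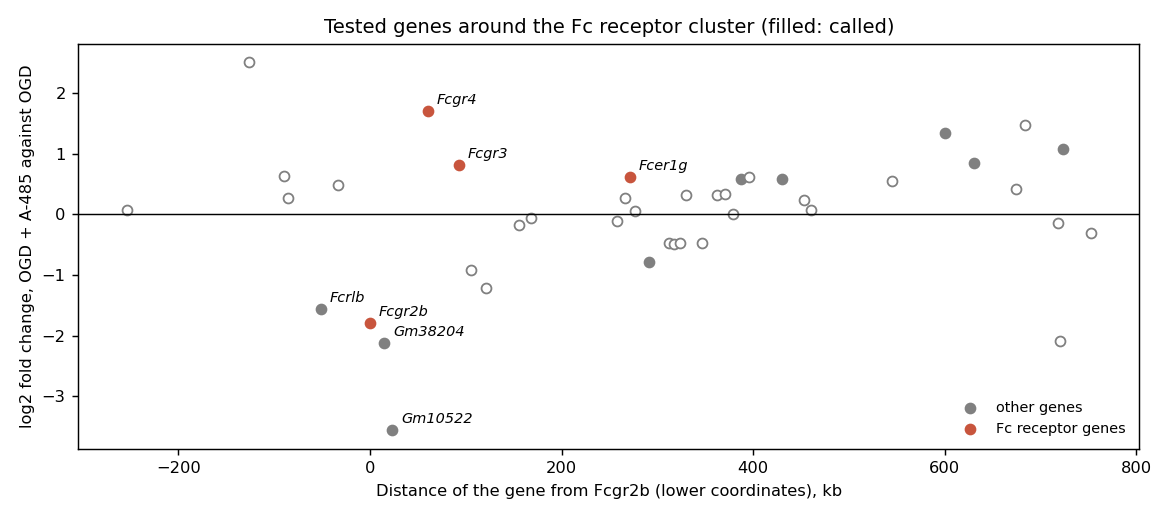
Log2 fold change in OGD + A-485 against OGD (y axis) of the genes tested around the chromosome 1 Fc gamma receptor cluster, by distance from Fcgr2b along the chromosome (x axis, kb), filled where called. Fcgr2b lies at -1.80 and Fcgr4 at 1.70, among neighbours with a median of 0.07.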

How the data were processed

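RNA-seq was analysed from the deposited gene table of 9 BV2 libraries, grouped by the sample labels. The values are FPKM. Per the study's methods the authors mapped reads, counted them per gene with featureCounts and called genes with DESeq2, and per the labels the build is GRCm38 (mm10). Whether counting used strand is not given in the sources used here. Whole reads were recovered from the deposited FPKM and gene lengths (100% of values within 0.01 of a whole number). The deposited gene length was used as given. For the 16123 genes averaging 0.2 FPKM or more over all libraries, log2(FPKM + 0.1) was fitted in limma 3.58.1 (R 4.3.3) with 1 mean per group and a trended prior, after a check on simulated data. Fold changes on this scale understate those of low genes. Counting error limits low genes most. Alternatives were the pseudocount, filter, scaling, thresholds, neighbouring genes, a replicate block and leaving out each library. The genes followed and all lists were chosen with earlier results of these data known. Named pathway genes were, in each comparison, the 3 largest rises and falls among those called that averaged 1 FPKM or more and no overlap between groups. Promoters are from RefSeq.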

Additional observations from a re-analysis of the deposited data

How the results depend on the processing

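Of 528 alternative values of the log2 fold changes of the 8 genes, 516 kept their direction and side of the threshold, 7 passed it newly, 1 fell short and 4 changed sign. The sign changes were all in Ptpn6. Between OGD + A-485 and OGD it was -0.03 scaled to library totals, -0.082 after quantile normalization and -0.26 with the median of neighbouring genes subtracted, and against Ctrl it was -0.32 with that median subtracted. With an adjusted p under 0.05 in place of the thresholds, 7 of the 8 genes were higher in OGD against Ctrl. The other pathway genes counted 40 higher and 19 lower there, and 59 higher and 21 lower in OGD + A-485 against OGD. By that rule, 3624 of all 16123 genes tested were higher and 3676 lower in OGD against Ctrl. In OGD + A-485 against OGD, 4053 of all genes were higher and 3983 lower. Subtracting the neighbours' median gave 6 pathway genes lower in OGD, beside 1764 of the 16115 genes with such a median. Scaling to library totals moved the share of higher among all calls in OGD + A-485 against Ctrl from 50.6% (2747 higher, 2684 lower) to 40.2% (2253 higher, 3350 lower). The divisor behind the deposited FPKM was 1.04 to 1.05 times the reads on genes in Ctrl and 0.953 to 0.982 times in OGD + A-485. This scaling therefore moved the folds of that comparison down together, and the median of all genes went from 0.016 to -0.088. Why the divisors differ from the totals was not tested. The log2 difference in the receptor ratio was -0.46, 3.37 and 2.91 with the mean of logs, for OGD against Ctrl and then OGD + A-485 against OGD and against Ctrl, and 2.86 and 2.72 in the last 2 after quantile normalization. Replicate numbers were not shown to pair libraries, with correlations of same-numbered libraries from -0.046 to 0.039, and with them as a block the calls were 3 higher and 1 lower, 5 and 1, and 6 and 1 for the 8 genes and 26 and 3, 35 and 13, and 47 and 8 for the pathway. Leaving out each library gave 3 to 4 genes higher in OGD. At 90 to 582 reads, Fcgr4 was the least precise receptor.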
